A study of Mus musculus with 5 samples.

Results

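The genes described here encode the secreted and membrane-bound metalloproteases that cut the extracellular matrix and the inhibitors that hold them in check, measured in mouse hearts after ischemia and reperfusion. They were taken by name: every gene whose symbol starts with Mmp, Adamts or Timp followed by a digit and that had a probe annotated with that symbol alone. This gave 44 of 22180 genes, namely 22 Mmp, 18 Adamts and 4 Timp genes. For a gene with several probes, which held for 4 of the 44, the probe with the highest mean over the arrays stands for it.

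All hearts came from wild-type C57Bl6J mice at zeitgeber time 12, in hours from lights on, and were perfused in isolation on a Langendorff apparatus, which feeds buffer through the aorta outside the body. Each heart had 20 min of stabilisation, 20 min with the pump off and 20 min of reperfusion before freezing. The antagonist group (n = 3) came from mice injected intraperitoneally with a REV-ERB alpha antagonist at 10 µM, 4 h and 1 h before the perfusion; the sham group (n = 2) went through the same perfusion without it. The labels call the arrays biological replicates, and they give neither the age of the mice, the name of the compound, nor whether sham mice were injected. Both groups share the ischemia and reperfusion, and hearts without it were not analysed here. The comparison asks which transcripts differ in reperfused hearts when REV-ERB alpha, a repressor of the circadian clock, is blocked beforehand.

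Matrix metalloproteases, the MMPs, are zinc enzymes made as inactive precursors whose prodomain must be removed before they cut collagens, gelatin, laminin and other matrix proteins. The ADAMTS enzymes are related secreted proteases with thrombospondin repeats; several cut the large proteoglycans versican and aggrecan, and others trim procollagens or von Willebrand factor. The TIMPs bind the active site of these enzymes and block it. In the heart this balance is known for its part in the turnover of the matrix after infarction.

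The array signals of the 44 genes spread widely, from 1.50 for Mmp1b to 9.37 for Timp3 on the log2 scale of the deposited RMA values, in which 1 unit is a doubling of the signal. The medians of all probes lay between 3.92 and 3.95 on the 5 arrays. Probes differ in how strongly they respond, so this is an order of array signals and not of transcript amounts. A level filter at the 40th percentile of the probe means, 3.42, kept 37 of the 44 genes for testing. The values stepped from 3.46 for Adamts13, just inside the filter, to 3.21 for Mmp20, just outside. The 7 genes below it were Mmp20, Mmp12, Mmp8, Adamts20, Adamts18, Mmp1a and Mmp1b. Mmp8, the neutrophil collagenase, gave the same value of 2.99 on all 5 arrays, and Mmp12, the macrophage elastase, gave 2.99 on 4 arrays and 3.04 on antagonist replicate 3.

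The 10 brightest genes were Timp3, Mmp2, Timp2, Adamts1, Adamts9, Timp4, Adamts5, Mmp14, Adamts10 and Adamts7, in falling order of the mean. All 10 were also the brightest over the sham arrays alone, over the antagonist arrays alone and with the mean of all probes of a gene. Within this order Mmp2 (8.27), Timp2 (8.23) and Adamts1 (8.21) lay closer together than their SD over the arrays of 0.21, 0.17 and 0.12, and Mmp2 exceeded Timp2 on 3 of 5 arrays. Timp3 stood above Mmp2 on all 5 arrays, by 1.10 on average. The gene for the gelatinase of neutrophils and macrophages, Mmp9, was near the array medians at 3.84, and so was Mmp3 at 3.90.

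**Figure D1:**
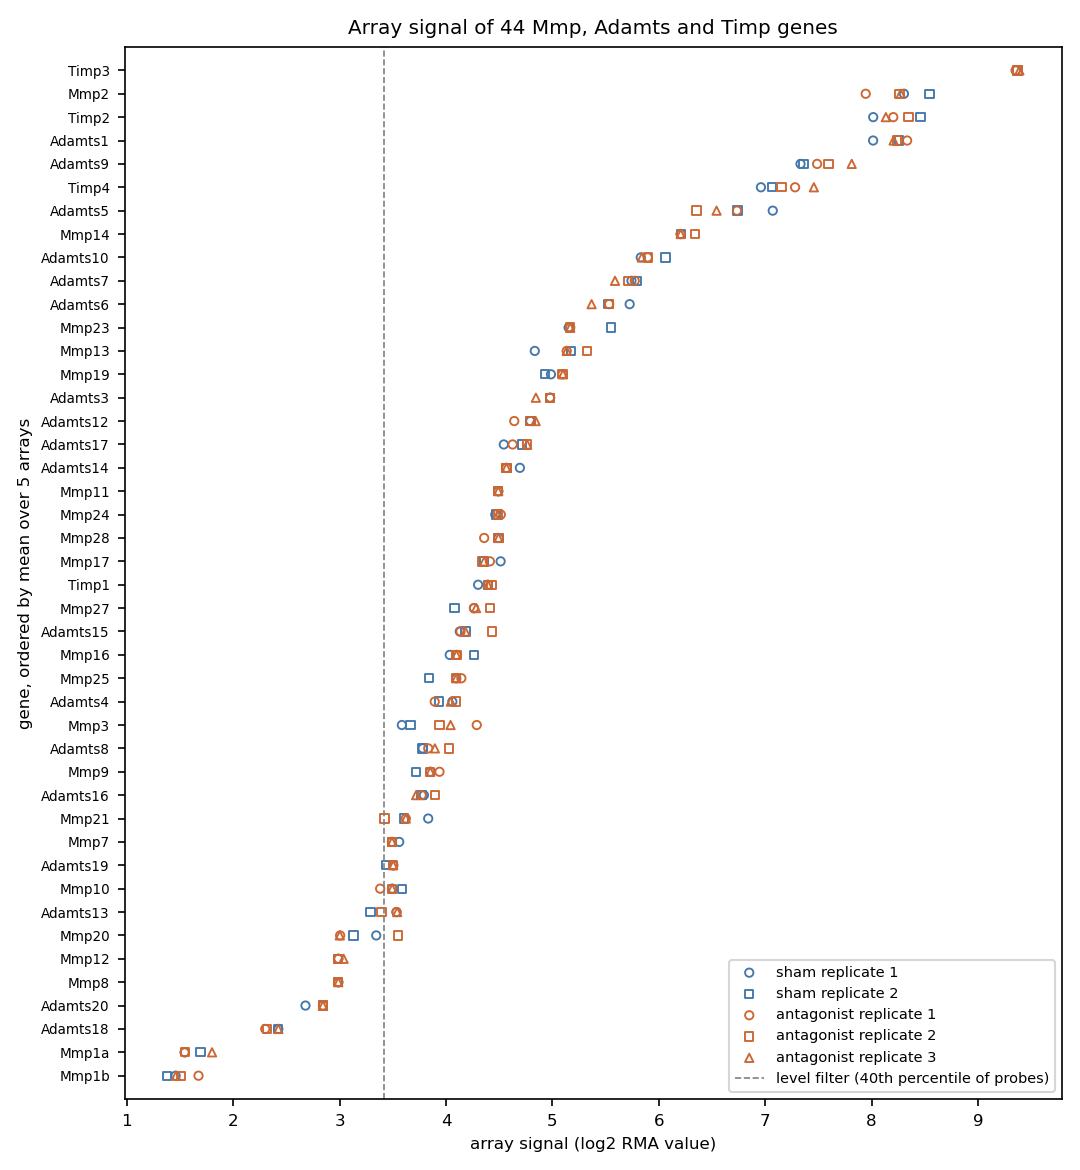
The horizontal axis gives the array signal (log2 RMA value) of each of the 44 genes, ordered from top to bottom by the mean over the 5 arrays; each symbol is 1 array, and the dashed line is the level filter at 3.42. Timp3, with a mean of 9.37, stands alone at the top, and 7 genes lie below the filter.

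The arrays differed in ways that bear on these genes. Antagonist replicate 2 stood apart for atrial, fat and mesothelial genes: the mean of 10 atrial markers was 9.54 there and 7.60 to 8.03 on the other 4 arrays, that of 7 fat cell markers 6.96 against 5.36 to 5.58, and that of 11 mesothelial markers 5.23 against 4.49 to 4.57. Sham replicate 1 was the single lowest array for 25.9% of all 15294 tested genes and the single highest for 22.3%. Among the 37 tested proteases and inhibitors it was the single lowest for 13, or 35.1%, and the single highest for 6. Antagonist replicate 2 was the single highest for 8 of the 37, or 21.6%, beside 14.7% of all tested genes. Exactly equal values on different arrays were common: 26 of the 37 genes had fewer than 5 different values, as had 11303 of all tested genes, and a small error in such a gene need not measure the spread between hearts. Heart muscle markers, of which 12 of 12 passed the level filter, had a mean of 11.2 to 11.3 on each array. Tnnt2 (12.6), the cardiac troponin T gene, was the brightest of them and Irx4 (6.96) the lowest. Groups did not overlap for 1 of the 12 upward (Atp2a2), beside 6.19% of all tested genes, and for 2 downward (Irx4 and Tnni3), beside 6.33%.

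No protease or inhibitor gene passed the test between the groups. With limma, 0 of the 37 genes reached an adjusted p under 0.05 (adjusted over all genes tested), where 0 of 15294 genes, or 0%, did. At an unadjusted limma p under 0.05 there were 2 of 37 genes, Mmp19 and Mmp3, or 5.41%, beside 4.6% of all genes tested. Both were higher with the antagonist, as 2.23% of all genes were, and 0 were lower, beside 2.37%. Signed differences give antagonist minus sham in log2 units. They were positive for 20 of the 37 genes and negative for 16, with Mmp11 at 0, and ran from -0.36 to 0.46. Their median was 0.01, and that of all tested genes was 0. A difference of at least 0.25 was seen upward in 3 of the 37 genes, beside 4.92% of all genes, and downward in 2, beside 4.44%.

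The values of the groups did not overlap for 8 of the 37 genes. In 6 of them, or 16.2%, every antagonist heart lay above both sham hearts, as in 6.19% of all genes tested: Mmp3, Adamts9, Timp4, Adamts8, Mmp19 and Mmp24. In 2 of them, or 5.41%, every antagonist heart lay below, as in 6.33% of all genes: Mmp2 and Adamts5. Without antagonist replicate 2 the counts were again 6 and 2, with 8.76% and 8.86% of all genes as background. Without antagonist replicate 3 they were also 6 and 2 (8.66% of all genes lower and 9.25% higher), and without antagonist replicate 1 they were 8 and 3 (8.37% higher and 9.41% lower). Without sham replicate 1 they were 11 and 8, with 19.6% and 22.5% of all genes, and without sham replicate 2 they were 15 and 7, with 28.1% and 24.6%. Over the 10 divisions of 5 arrays into 2 and 3, the smallest p that an exact permutation test can give is 0.1, so this design cannot reach 0.05 in that test.

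**Figure D2:**
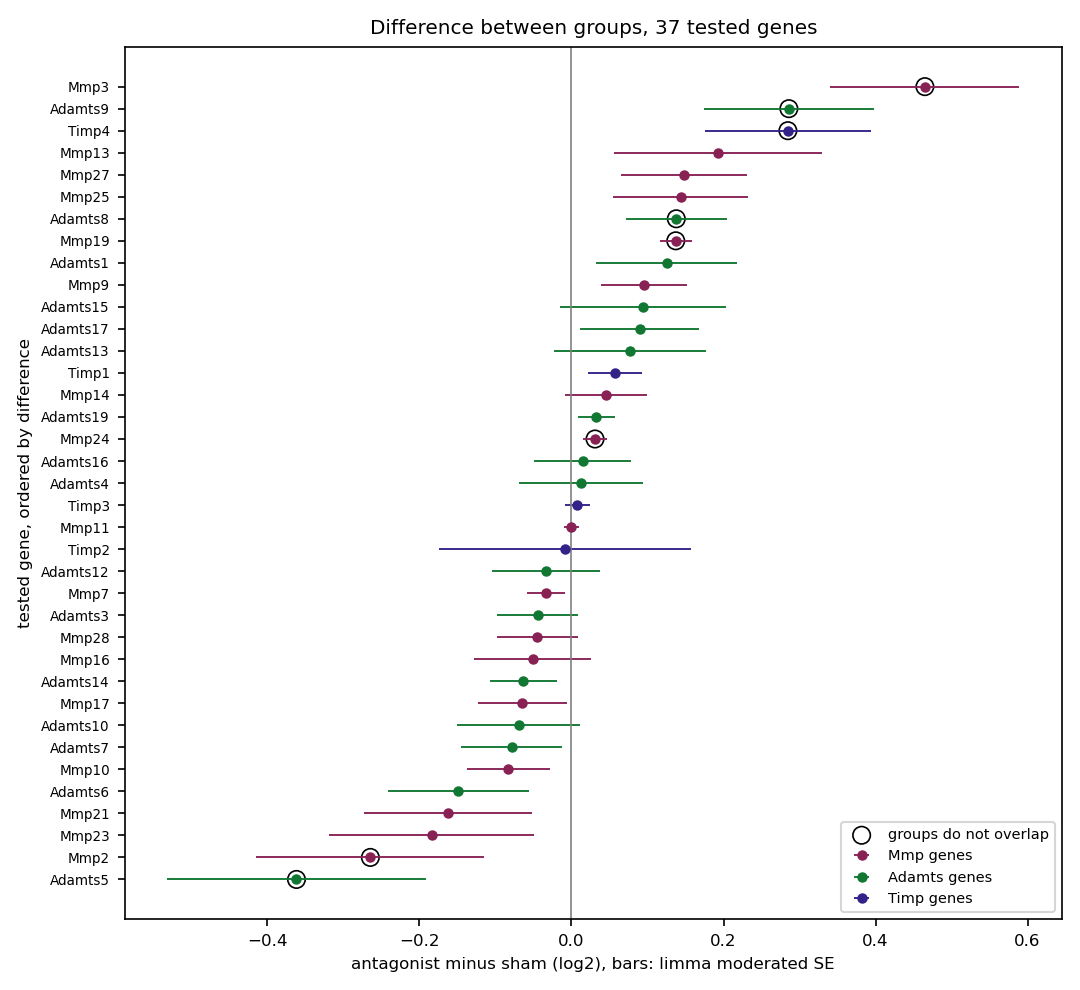
The horizontal axis gives antagonist minus sham (log2) for the 37 tested genes, with bars of limma's moderated SE and colours for Mmp, Adamts and Timp genes; black rings mark the 8 genes whose groups do not overlap. Differences run from -0.36 for Adamts5 to 0.46 for Mmp3 and lie on both sides of 0 in the Mmp and Adamts genes.

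The inhibitors included the brightest of the 44 genes, and their differences had both signs. Timp3 (Entrez Gene 21859), whose protein binds to the matrix and inhibits both MMPs and ADAMTS enzymes, measured 9.36 and 9.37 in sham replicates 1 and 2 and 9.35, 9.37 and 9.39 in antagonist replicates 1 to 3. The groups overlapped fully, and the difference was 0.0077 ± 0.02 (limma SE), and the SD over the 5 arrays, 0.01, was the smallest among the 10 brightest genes. Timp2 (Entrez Gene 21858), which inhibits MMPs and also helps to activate the Mmp2 precursor at the cell surface, measured 8.02 and 8.46 in sham and 8.20, 8.35 and 8.13 with the antagonist. Both its lowest and its highest value were sham hearts, so that the difference of -0.0088 was 0.21 without sham replicate 2 and -0.23 without sham replicate 1. Timp1 (Entrez Gene 21857), the inhibitor that cytokines induce in injured tissue, was near the array medians at 4.30 and 4.39 in sham and 4.39, 4.43 and 4.39 with the antagonist. Sham replicate 2 and antagonist replicates 1 and 3 had the same value.

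Timp4 (Entrez Gene 110595) was the one inhibitor whose groups did not overlap; it encodes the TIMP that is known for its abundance in the heart. It measured 6.96 and 7.07 in sham and 7.28, 7.15 and 7.46 with the antagonist. The lowest antagonist heart lay 0.09 above the highest sham heart. The sham mean was 7.01 ± 0.07 (SD, n = 2) and the antagonist mean 7.30 ± 0.15 (SD, n = 3), which is 1.22-fold higher, with an adjusted limma p of 0.64 and an exact two-sided permutation p of 0.2. With single arrays left out the difference of 0.28 ranged from 0.20 to 0.36.

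The gelatinase Mmp2 was the brightest protease and was lower in each antagonist heart. Mmp2 (Entrez Gene 17390), which cuts gelatin and basement membrane collagen and is made mainly by fibroblasts, measured 8.30 and 8.55 in sham and 7.94, 8.26 and 8.27 with the antagonist. Sham replicate 1 lay only 0.03 above the highest antagonist heart, while antagonist replicate 1 lay well below all others. The difference was -0.26 ± 0.15 (limma SE), or 0.83-fold, with an adjusted limma p of 0.64 and an exact two-sided permutation p of 0.2. It was -0.16 without antagonist replicate 1 and -0.14 without sham replicate 2, and -0.39 without sham replicate 1. Mmp14 (Entrez Gene 17387), the membrane-bound protease that activates the Mmp2 precursor together with Timp2, had the same value of 6.21 on 4 arrays and 6.34 on antagonist replicate 2. Its difference of 0.05 was 0 without that array. Mmp9, the other gelatinase, differed by 0.10, with overlapping groups.

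Fibroblast markers had differences of both signs beside Mmp2. Of 11 fibroblast markers tested, 7 were lower and 3 higher with the antagonist, with a median difference of -0.12; their mean level was 7.87 and 8.22 in sham and 7.92, 8.08 and 7.86 with the antagonist, so the groups overlapped. The largest negative differences were those of Lum (-0.39 ± 0.15, limma SE, groups not overlapping), the collagen gene Col3a1 (-0.39 ± 0.21), Postn, for the matrix protein periostin (-0.31 ± 0.19), and Col1a1 (-0.28 ± 0.20), each larger than that of Mmp2. Tcf21, a fibroblast transcription factor, differed by -0.12 ± 0.04, also without overlap. Lum and Tcf21 were the 2 of the 11 markers without overlap downward, beside 6.33% of all tested genes, and 0 were upward, beside 6.19%. The brightest markers were Dcn at 11.4, which differed by -0.01, and Gsn at 10.2, which differed by 0.38 ± 0.39, while Pdgfra, a receptor that marks fibroblasts, had the same value of 7.82 on all arrays. The part of these markers in the Mmp2 values was not tested. In whole tissue, fewer cells of a type and less RNA per cell cannot be told apart. The 10 smooth muscle and pericyte markers, with 8 lower and 2 higher, had mean levels of 7.51 and 7.62 in sham and 7.44 to 7.53 with the antagonist. Kcnj8, a potassium channel gene of pericytes, differed by -0.27 ± 0.09 (limma SE, limma adjusted p = 0.64). The brightest, Rgs5 (11.0) and Abcc9 (10.8), differed by -0.22 ± 0.13 and -0.07 ± 0.04, with overlapping groups. Groups did not overlap for 2 of the 10 downward, beside 6.33% of all tested genes, and for 0 upward, beside 6.19%.

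Mmp3 showed the largest difference of all 37 genes, at a low signal. Mmp3 (Entrez Gene 17392) encodes stromelysin-1, which cuts proteoglycans, laminin and fibronectin and activates other MMP precursors. It measured 3.59 and 3.67 in sham and 4.29, 3.94 and 4.04 with the antagonist. The gap between the groups was 0.27, the widest among the 8 genes without overlap, and the sham values lay below the array medians while the antagonist values lay at or above them. The means were 4.09 ± 0.18 (SD, n = 3) and 3.63 ± 0.06 (SD, n = 2), a difference of 0.46 ± 0.12 (limma SE) or 1.38-fold. The unadjusted limma p was 0.023 and the adjusted p 0.64, and the exact two-sided permutation p was 0.1. With single arrays left out the difference stayed between 0.37 and 0.54. The other tested stromelysins differed by -0.08 (Mmp10) and 0 (Mmp11, the same value on every array; its second probe gave 0.03).

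Mmp3 belongs to a run of 10 MMP genes that follow one another without another protein-coding gene between them in the RefSeq order of mouse chromosome 9: Mmp13, Mmp12, Mmp1b, Mmp3, Mmp1a, Mmp10, Mmp8, Mmp27, Mmp20 and Mmp7. Of these, 5 passed the level filter, Mmp3 and 4 others in which the groups overlapped: Mmp13, the main interstitial collagenase of rodents, differed by 0.19, Mmp27 by 0.15, Mmp10 by -0.08 and Mmp7, or matrilysin, by -0.03. Mmp1a and Mmp1b, on either side of Mmp3, are close copies of each other whose probes could share transcripts; they had the lowest signals of all 44 genes, 1.63 and 1.50. Neither passed the filter.

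Promoter windows of RefSeq (GRCm38.p6) were found for 30 of the 44 genes, and for all 10 of this run. They are shown for Mmp3 and 4 genes near it because the run shares a motif that was no part of how the genes were chosen. This is TGANTCA, a pattern that covers the site bound by the AP-1 factors and leaves its central base open. It was searched on both strands and reads the same on both apart from that base. In the 110 bases before the start, 8 of the 10 genes held it in at least 1 annotated window, all but Mmp8 and Mmp27. The matched letters were TGAATCA in Mmp20, TGACTCA in Mmp13 and TGAGTCA in the others. Over the first window of each gene, 3.06% of 27025 promoters of the same length held it, and 7 of the 30 windows of the proteases and inhibitors did, all 7 in this run. With 250 bases, the length used below for the other motifs, 6.9% of all promoters held it and again 7 of the 30 windows. Capitals mark the match, which starts 46 bases before the annotated start in Mmp3, 35 in Mmp13, 93 in Mmp1b, 73 in Mmp1a and 63 in Mmp10.
Mmp13, chr9:7272404-7272513, plus strand: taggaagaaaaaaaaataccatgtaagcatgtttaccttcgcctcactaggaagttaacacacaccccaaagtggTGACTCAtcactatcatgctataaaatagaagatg
Mmp1b, chr9:7388027-7388136, minus strand: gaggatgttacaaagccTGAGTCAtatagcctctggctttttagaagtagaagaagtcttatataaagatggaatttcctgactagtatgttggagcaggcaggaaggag
Mmp3, chr9:7445712-7445821, plus strand: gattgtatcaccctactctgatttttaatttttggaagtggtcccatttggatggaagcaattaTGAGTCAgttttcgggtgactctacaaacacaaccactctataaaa
Mmp1a, chr9:7464031-7464140, plus strand: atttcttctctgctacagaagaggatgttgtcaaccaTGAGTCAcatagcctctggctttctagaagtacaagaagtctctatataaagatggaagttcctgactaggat
Mmp10, chr9:7502232-7502341, plus strand: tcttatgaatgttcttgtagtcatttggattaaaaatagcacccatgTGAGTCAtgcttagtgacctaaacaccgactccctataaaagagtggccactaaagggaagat
The match is a description of these letters and shows no binding. In 250 bases before the start, AGGTCA, the half-site to which REV-ERB alpha and related receptors bind, was in the first window of 3 of the 30 genes (Mmp10, Mmp1a and Mmp1b), beside 13.8% of all promoters, and the E-box CACGTG of the clock activators was in that of 1 gene, Adamts17, beside 6.0%.

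Genes that supply or drive AP-1 were measured beside Mmp3. Of 16 tested AP-1 subunits, cytokines and receptors known to induce such genes, 10 were higher and 6 lower, with a median difference of 0.04, and 0 passed the adjusted limma test. Groups did not overlap for 3 of the 16 upward, beside 6.19% of all tested genes, and for 0 downward, beside 6.33%. These 3 were Osmr, Il1b, for interleukin-1 beta (0.743 ± 0.335, limma SE), and Il6st (0.128 ± 0.069). Jun (10.7) and Atf3 (9.99) were the brightest, and Fos differed by 0.01 ± 0.10 and Jun by -0.08 ± 0.11 (limma SE). Osmr, the receptor for oncostatin M, measured 7.68 and 7.34 in sham and 8.34, 8.36 and 8.12 with the antagonist, a difference of 0.77 ± 0.14 (SE; limma adjusted p = 0.64). The part of any of these genes in the Mmp3 values was not tested.

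The remaining tested MMPs had differences between -0.18 and 0.14. Mmp19 (Entrez Gene 58223), a secreted protease of basement membrane proteins, measured 4.99 and 4.93 in sham and 5.09, 5.09 and 5.10 with the antagonist. Its antagonist values, of which those of replicates 1 and 2 were exactly equal, had an SD of 0.0027, and a difference of 0.14 ± 0.02 (limma SE) gave the smallest unadjusted limma p of the 37 genes, 0.0039, with an adjusted p of 0.64. The difference was 0.16 without sham replicate 1 and 0.11 without sham replicate 2, where a single sham heart is set against nearly equal antagonist values. Mmp24 (Entrez Gene 17391), a membrane-type MMP known mainly from the nervous system, had groups that did not overlap over a range of 4.46 to 4.52, a difference of 0.03. The other tested membrane-type genes Mmp25 (0.14), Mmp16 (-0.05) and Mmp17 (-0.06) had overlapping groups. The differences of Mmp21 (-0.16), Mmp23 (-0.18) and Mmp28 (-0.04) were negative, also with overlap; that of Mmp23 rested on sham replicate 2 and was 0.02 without it.

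Among markers of immune cells, those of neutrophils were low and those of macrophages had differences of both signs. Buffer, not blood, fed the isolated hearts during the perfusion. Of 12 neutrophil markers 6 passed the filter, and the defining markers S100a8, S100a9, Ly6g, Camp, Ltf and Retnlg did not; the mean of the 6 was 4.26 and 4.06 in sham and 4.20 to 4.28 with the antagonist. Lcn2 (5.90) and Csf3r (4.26) were the brightest. Of 11 tested macrophage and monocyte markers 7 were higher and 4 lower, with mean levels of 6.74 and 6.76 in sham and 6.78 to 6.95 with the antagonist, so these means did not overlap. The groups did not overlap for 4 of the 11 upward, beside 6.19% of all tested genes, and for 1 downward, beside 6.33%. Fcgr1, an Fc receptor gene, differed by 0.34 ± 0.06, Itgam, an integrin of myeloid cells, by 0.31 ± 0.06 and Cd14, a receptor for bacterial lipopolysaccharide, by 0.67 ± 0.17 (SE; limma adjusted p = 0.64 for each). The complement gene C1qa was the fourth, at 0.38 ± 0.18, and Cd68, a lysosomal protein of macrophages, was the one below, at -0.26 ± 0.17. The brightest markers, Lyz2 (8.63) and C1qb (8.61), differed by 0.09 ± 0.10 and 0.02 ± 0.16 (limma SE), with overlapping groups. The part of these markers in the protease values was not tested. Of 8 mast cell markers 3 passed the filter, with mean levels of 4.41 to 4.64 on the 5 arrays.

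Among the ADAMTS genes, the proteoglycan-cutting group held both the largest positive and the largest negative difference. Of its 6 tested genes 5 were higher and 1 lower with the antagonist. Adamts9 (Entrez Gene 101401), which cuts versican and aggrecan, measured 7.33 and 7.36 in sham and 7.49, 7.60 and 7.81 with the antagonist. Each antagonist heart lay at least 0.13 above both sham hearts, which were nearly equal. The difference was 0.29 ± 0.11 (limma SE), or 1.22-fold, with an adjusted limma p of 0.64 and an exact two-sided permutation p of 0.2. It was 0.20 without antagonist replicate 3, the highest heart, and 0.36 without antagonist replicate 1, the lowest of that group.

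Adamts5 (Entrez Gene 23794), a major aggrecan- and versican-cutting enzyme, was lower with the antagonist in each heart. It measured 7.07 and 6.74 in sham and 6.74, 6.35 and 6.54 with the antagonist. Sham replicate 2 lay only 0.0049 above antagonist replicate 1, so the groups barely separated, and antagonist replicate 2 was the lowest heart. The difference was -0.36 ± 0.17 (limma SE), or 0.78-fold, with an adjusted limma p of 0.64 and an exact two-sided permutation p of 0.2; it was -0.20 without sham replicate 1, -0.27 without antagonist replicate 2 and -0.53 without sham replicate 2. Adamts1 (Entrez Gene 11504), its direct neighbour in the RefSeq order on chromosome 16 and an enzyme with the same substrates, measured 8.01 and 8.25 in sham and 8.33, 8.24 and 8.21 with the antagonist. Its groups overlapped, and the difference of 0.13 was 0.0052 without sham replicate 1, the lowest heart.

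Adamts8 (Entrez Gene 30806), a further member of this group, measured 3.78 and 3.78 in sham and 3.83, 4.03 and 3.90 with the antagonist. The sham hearts were nearly equal and every antagonist heart was higher, by a mean of 0.14; without antagonist replicate 2 the difference was 0.08. A second probe, at 3.41, gave 0.10 and had the same value on 4 of the 5 arrays. Its direct neighbour Adamts15 differed by 0.09 and Adamts4, known for its induction in inflamed joints, by 0.01, both with overlapping groups.

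The genes of ADAMTS enzymes with other substrates had differences between -0.15 and 0.09. The procollagen-trimming genes Adamts3 and Adamts14 differed by -0.04 and -0.06, though a second probe of Adamts14 gave 0.12. The genes of the enzymes that cut cartilage oligomeric matrix protein, Adamts7 and Adamts12, differed by -0.08 and -0.03, and the von Willebrand factor protease gene Adamts13 by 0.08. Adamts10 and Adamts6, whose proteins associate with fibrillin microfibrils, differed by -0.07 and -0.15. Adamts10 (Entrez Gene 224697) measured 5.83 and 6.06 in sham and 5.90, 5.90 and 5.84 with the antagonist, so that sham held both the lowest and the highest heart and the difference turned to 0.05 without sham replicate 2. Adamts7 (Entrez Gene 108153) measured 5.74 and 5.80 in sham and 5.77, 5.71 and 5.59 with the antagonist, with overlapping groups. Adamts16, Adamts17 and Adamts19 differed by 0.01 to 0.09.

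**Figure D3:**
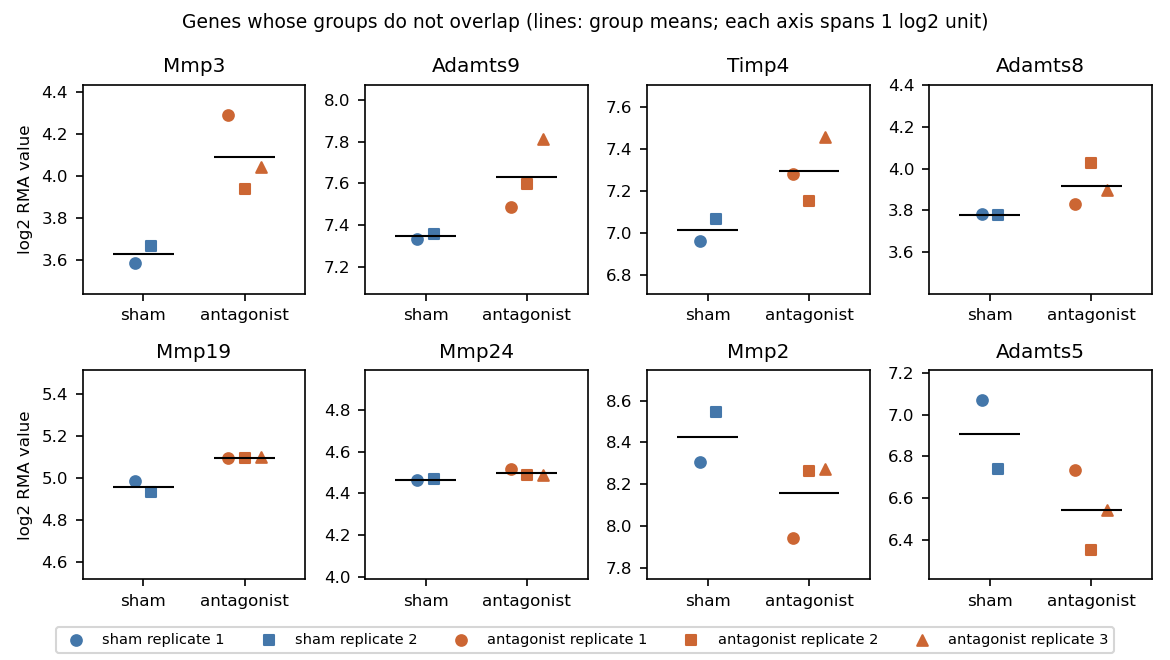
Each panel gives the log2 RMA value of 1 of the 8 tested genes whose groups do not overlap, with 1 symbol per heart, a line at the group mean and an axis that spans 1 log2 unit. Mmp3 has the widest gap between the groups, 0.27, and Adamts5 the narrowest, 0.0049.

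The genes around the proteases were read from the same fit, and 0 of them passed the adjusted limma test. Of 18 tested matrix proteins that these enzymes cut, 8 were higher and 10 lower with the antagonist, with a median difference of -0.01. In 4 of the 18, picked out after their values were seen, every antagonist heart lay below both sham hearts: Lum, for the proteoglycan lumican (-0.39 ± 0.15, limma SE), Bgn, for biglycan (-0.27 ± 0.11), Ncan (-0.20 ± 0.10) and Hspg2, for the basement membrane proteoglycan perlecan (-0.08 ± 0.05). As given above, 6.33% of all tested genes lay below in this way, and 0 of the 18 lay above, beside 6.19%. Of 12 tested regulators of metalloproteases 9 were higher and 3 lower, with a median of 0.07. Cav1, the caveolin that shapes membrane pits of endothelium, differed by -0.19 ± 0.04 (limma SE, limma adjusted p = 0.64). Groups did not overlap for 1 of the 12 upward, Spock2 (0.39 ± 0.19), beside 6.19% of all tested genes, and for 1 downward, Cav1, beside 6.33%.

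Of 14 tested cathepsins and cystatins, lysosomal proteases and their inhibitors, 9 were higher and 5 lower, with a median of 0.10. Ctss, a cathepsin of macrophages, measured 7.19 and 7.23 in sham and 7.38, 7.56 and 7.46 with the antagonist, a difference of 0.26 ± 0.06 (limma SE, limma adjusted p = 0.64). Groups did not overlap for 2 of the 14 upward, Ctss and Ctsl (0.42 ± 0.21), beside 6.19% of all tested genes, and for 0 downward, beside 6.33%. Of 10 tested ADAM genes, for membrane relatives of ADAMTS enzymes, 6 were higher and 4 lower, with a median of 0.05. Groups did not overlap for 2 of the 10 upward and 0 downward, beside the same shares of all genes. The plasmin system activates MMP precursors. Of 9 tested genes of this system and of tissue factor and its inhibitors, 3 were higher and 5 lower, with a median of -0.0030. Groups did not overlap for 1 of the 9 upward, Plaur (0.345 ± 0.135, limma SE), beside 6.19% of all tested genes. They did not overlap for 1 downward, Tfpi (-0.141 ± 0.069), beside 6.33%. The gene of the plasmin precursor was below the level filter. Of 4 tested ADAMTS-like genes, whose proteins lack the protease domain, 2 were higher and 2 lower; Adamtsl2 differed by 0.08 ± 0.03 (SE; limma adjusted p = 0.64). Of 12 tested endothelial markers 8 were higher and 4 lower, with mean levels of 7.72 and 7.90 in sham and 7.84 to 7.85 with the antagonist, so that the antagonist hearts lay between the sham hearts. Cdh5, the endothelial cadherin, differed by -0.23 ± 0.05 (SE; limma adjusted p = 0.64) and Eng, for endoglin, by 0.23 ± 0.14. Groups did not overlap for 1 of the 12 downward (Cdh5), beside 6.33% of all tested genes, and for 1 upward, beside 6.19%. The latter was Flt1, a VEGF receptor, higher by 0.24 ± 0.10.

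Antagonist replicate 2, with its high atrial, fat and mesothelial genes, was the highest heart for Adamts8 and the lowest for Adamts5, and it lay inside the range of the other antagonist hearts for Mmp2 and Adamts9. It was the lowest antagonist heart for Mmp3 and Timp4. Without it the differences were 0.54 for Mmp3, 0.30 for Adamts9, 0.36 for Timp4, -0.32 for Mmp2 and -0.27 for Adamts5. The part of these markers in the Adamts5 and Adamts8 values was not tested.

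**Figure D4:**
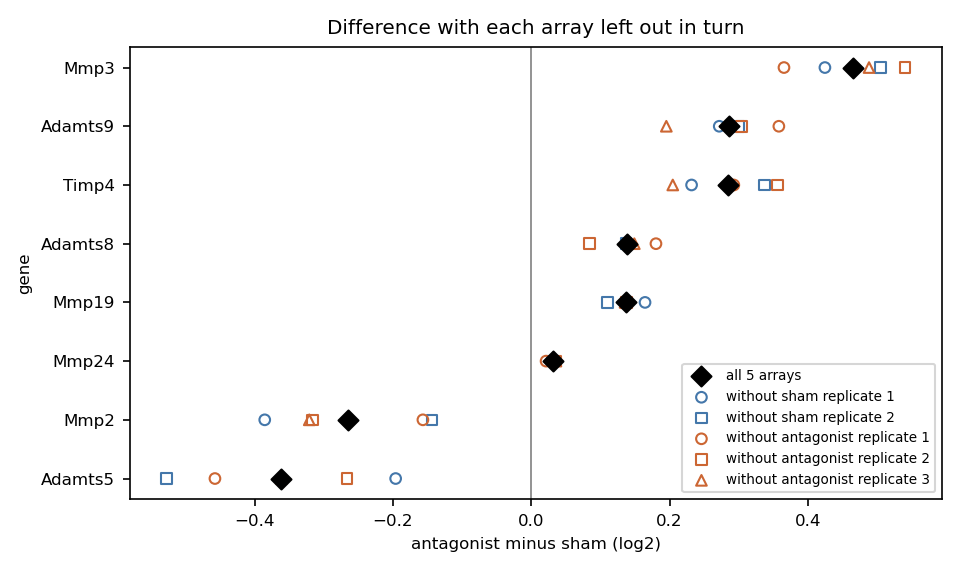
The horizontal axis gives antagonist minus sham (log2) for the 8 genes whose groups do not overlap; black diamonds use all 5 arrays and open symbols leave out 1 array each. All symbols of a gene lie on the same side of 0, with Adamts5 between -0.53 and -0.20 and Mmp3 between 0.37 and 0.54.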

How the data were processed

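Affymetrix whole-transcript arrays were run on total RNA from 5 hearts, 300 ng each per the labels' protocols. The deposited log2 values were made by the authors with RMA, per the submitters' processing notes; the RMA version, probe set library and build are not given in sources used here, so genes carry no coordinates. Columns were matched to samples by name, with groups from the labels. Of 41345 probes, 23521 had 1 gene symbol in the platform annotation, 1814 had several and 16010 were not listed; the 44 members matched RefSeq (GRCm38.p6) by Entrez Gene identifier. The 15294 genes whose mean reached the 40th percentile of probe means were tested with limma 3.58.1 in R 4.3.3 (lmFit, eBayes, two-sided, no covariates) and Benjamini-Hochberg adjustment over all tested genes at 0.05. The number of arrays limits the precision. Exact permutation tests enumerated the 10 divisions of the arrays. The scripts were tested on simulated data.

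The genes described, the gene lists and the rule for named genes were chosen with earlier results of these data known. Values are given per array for the Timp genes, the 10 brightest genes, genes with an unadjusted p under 0.05, genes whose groups do not overlap and the 5 largest differences. Of other lists, genes with an unadjusted p under 0.05 and the brightest cell type markers were named. This was not done for the atrial, fat, mesothelial and mast cell lists, for which only list means were given. The other genes named from these lists (Pdgfra, Lum, Col3a1, Postn, Col1a1, Bgn, Ncan, Hspg2, Fos, Il1b, Il6st, C1qa, Cd68, Flt1, Irx4, Tnni3, Atp2a2, Spock2, Ctsl, Plaur and Tfpi) were chosen after their values were seen. Alternatives were the level filter, normalization, probe choice, variance model, array weights, the replicate block and leaving out each array. Symbols with no probe of their own were not analysed here.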

Additional observations from a re-analysis of the deposited data

How the results depend on the processing

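The groups held 2 and 3 hearts, and 26 of the 37 tested genes had exactly equal values on some arrays. Calls were 0 of 37 genes under every alternative except leaving out a sham heart: over the 5 single-array omissions they ranged from 0 to 4 of 37 genes, and from 0 to 2058 of 15294 genes, with 4 and 1319 without sham replicate 1 and 4 and 2058 without sham replicate 2. Non-overlapping groups ranged from 6 to 15 genes higher and 2 to 8 lower in these omissions. Centring each array on its median, which breaks ties, gave 10 higher and 5 lower (10.9% and 13.8% of all tested genes), and a second quantile normalization 9 and 3 (9.91% and 14.2%). The 60th percentile filter, with 18 genes tested, gave 8 positive and 10 negative differences. Without overlap were 3 higher and 2 lower, for which the share of all genes was not computed under this filter. Among the genes given per array, signs turned for Timp2 (0.038 with the replicate block; -0.230 to 0.213 with single arrays left out), Timp3 (-0.0010 with the block; -0.0010 to 0.016 with single arrays left out) and Adamts10 (-0.185 to 0.046 likewise), and with single arrays left out also for 7 of the 22 other tested genes (Mmp23, Adamts12, Mmp17, Mmp16, Adamts4, Adamts16 and Adamts13); the cause was not tested. Correlations of deviations from the group means were -0.11 and 0.03 for arrays of equal replicate number. The deviations of 2 sham hearts are mirror images of each other, so these values cannot decide whether the numbers pair the hearts. The replicate block gave 0 calls among all genes. For the 8 genes whose groups do not overlap, the sign was kept in every alternative that tested them. Mmp3, Adamts8 and Mmp24 lay below the 60th percentile filter and were not tested under it.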
